A study of Mus musculus with 12 samples.

Results

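The genes described here are 9 genes widely used as markers of astrocytes: Gfap, Aqp4, Slc1a2, Slc1a3, Aldh1l1, Aldoc, Gja1, Hepacam and S100b. They were chosen by name, as the rows of the deposited count and FPKM tables whose Ensembl identifiers map to these symbols, and all 9 were found among the 47069 genes of the tables. All 9 also passed the filter on low counts and are among the 15925 genes tested. The study profiled intracranial B16 F1 tumors, a pigmented mouse melanoma line grown in the brain of C57BL/6 mice and taken at day 9 after implantation, in 12 RNA-seq libraries. The libraries form 4 groups of 3: intracranial tumor only with IgG, intracranial tumor only with anti-PD-1 and anti-CTLA-4 (called therapy here), intracranial and extracranial tumors (called both tumors here) with IgG, and both tumors with therapy. All groups carry the same tumor line in the brain, so there is no library of brain without tumor among these 12. The series' title gives the question, which is whether the effect of the checkpoint antibodies on melanoma in the brain depends on disease outside it. The series describes the 3 libraries of a group as biological replicates, the labels give no number or batch for them, and they were numbered in accession order.

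Astrocytes are the glial cells that tile the brain, wrap synapses and send endfeet onto blood vessels. They clear glutamate from the synaptic cleft through transporters, buffer potassium and move water through channels in the endfeet, and they are coupled into networks by gap junctions. Around injury and around tumors they become reactive, a state in which the intermediate filament protein of Gfap is classically increased. The 9 genes cover these roles. Slc1a2 and Slc1a3 encode the glutamate transporters GLT-1 and GLAST, Hepacam an adhesion protein of astrocyte contacts and endfeet, Gfap the filament protein, and Aqp4 the endfoot water channel. Aldh1l1 encodes a folate enzyme, Aldoc the brain isozyme of aldolase, Gja1 the gap junction protein connexin 43 and S100b a calcium-binding protein, and the last of these is also a known marker of melanocytic cells. Connexin 43 is made by many cell types outside the brain too.

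Totals per library ran from 18427495 to 22294182 reads, and the 9 genes together took 0.0284% to 0.215% of them. FPKM corrects a read count for gene length and for library size, so levels can be compared between genes on it. Snap25, a presynaptic gene of neurons, served as the reference within each library for how much brain RNA it held. The labels describe the samples as intracranial tumor tissue, and the tissue holds tumor and brain together. In such bulk tissue, fewer cells of a type and less RNA per cell cannot be told apart. The melanosome gene Pmel, a marker of the tumor cells, lay between 2165 and 3839 FPKM in the 12 libraries, a 1.77-fold span. One library stood apart from its group. Both-tumor IgG replicate 2 had 0.45 FPKM of Snap25 against 25.2 and 46.5 in its own group, and the sample name in its label ends differently from the other 11, with no meaning given in the sources used here. Its levels of Snap25, Slc1a2, Slc1a3, Hepacam, Gfap and Aqp4 lay nearer to those of the intracranial-only therapy libraries than to those of its own group. Whether its label is right was not tested, and the both-tumor IgG values depend on it. Named fold changes and slopes of the 9 genes that it moves by over 1.5 times are therefore also given without it.

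Snap25 itself set the scale of the comparison. It stood at 26.7, 9.43 and 33.5 FPKM with the intracranial tumor only and IgG, at 0.79, 0.14 and 0.18 FPKM with the intracranial tumor only and therapy, and at 23.8, 86.7 and 77.4 FPKM with both tumors and therapy. The lowest library held 7 reads of it and the highest 4577, a 628-fold span in FPKM. The 3 therapy libraries of mice with the intracranial tumor only and both-tumor IgG replicate 2 thus held little neuronal RNA, and each of the other 8 libraries held at least 9.43 FPKM of Snap25.

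The promoters of 4 of these genes are printed here because the genes differ in how far their levels moved, as the values that follow show: Slc1a3 and Gfap spanned wide ranges and Gja1 and S100b narrow ones. Each is the 250 bases before the RefSeq start of the gene on GRCm38.p6, 5′ to 3′ on the strand of the gene, in lower case with motif matches in capitals. Slc1a3 lies at chr15:8710808-8711057 (minus strand), Gfap at chr11:102897201-102897450 (minus strand), Gja1 at chr10:56377050-56377299 (plus strand) and S100b at chr10:76253586-76253835 (plus strand).
Slc1a3: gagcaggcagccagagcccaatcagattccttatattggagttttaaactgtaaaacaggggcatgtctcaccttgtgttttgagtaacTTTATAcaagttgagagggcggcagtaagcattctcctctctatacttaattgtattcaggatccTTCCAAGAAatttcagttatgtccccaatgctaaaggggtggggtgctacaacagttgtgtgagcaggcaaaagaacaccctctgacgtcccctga
Gfap: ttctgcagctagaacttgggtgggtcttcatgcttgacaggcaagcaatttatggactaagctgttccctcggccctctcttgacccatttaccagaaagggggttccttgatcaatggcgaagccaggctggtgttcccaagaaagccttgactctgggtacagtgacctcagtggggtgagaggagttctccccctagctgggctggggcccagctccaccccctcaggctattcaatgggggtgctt
Gja1: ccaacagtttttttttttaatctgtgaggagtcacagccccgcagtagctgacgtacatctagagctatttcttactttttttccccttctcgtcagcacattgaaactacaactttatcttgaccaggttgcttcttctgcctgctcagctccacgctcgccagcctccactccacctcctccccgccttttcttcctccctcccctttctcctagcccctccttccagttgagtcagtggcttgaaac
S100b: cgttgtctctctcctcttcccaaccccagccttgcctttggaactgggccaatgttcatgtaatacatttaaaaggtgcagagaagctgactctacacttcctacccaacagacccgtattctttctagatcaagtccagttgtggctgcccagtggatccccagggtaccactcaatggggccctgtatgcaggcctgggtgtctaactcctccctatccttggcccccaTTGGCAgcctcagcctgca
The motifs searched on both strands were TTGGCA, the core of nuclear factor I sites, TTCNNNGAA for STAT factors, ACAATGG for SOX factors, the E-box CACGTG and the TATA box TATAAA. The window of Slc1a3 held 1 STAT match, TTCCAAGAA, 96 bases before the start, which reads as a match on both strands, and a TATA box match on the other strand at 161 bases. The window of S100b held TTGGCA 19 bases before the start, and the windows of Gfap and Gja1 held none of the 5 motifs. Over all 32851 promoter windows of the same length, 12.3% held TTGGCA, 7.02% TTCNNNGAA, 3.02% ACAATGG, 6.02% CACGTG and 12.4% TATAAA, so each match found is of a kind that many promoters have. GC content was 44.8% for Slc1a3, 55.6% for Gfap, 50.0% for Gja1 and 53.6% for S100b, against a median of 52.4% over all windows. A match is a string of letters and shows no binding. In the annotation of the files' build (GRCm38) the gene bodies are Slc1a3 on chromosome 15 from 8634124 to 8710764, Gfap on chromosome 11 from 102887336 to 102900912, Gja1 on chromosome 10 from 56377330 to 56402513 and S100b on chromosome 10 from 76253853 to 76261159. The Gfap gene body of that annotation runs past the RefSeq start, so the printed Gfap window lies inside it and outside its exons.

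The glutamate transporters and Hepacam had the widest ranges of the 9 genes, 676-fold for Slc1a2, 1143-fold for Slc1a3 and 518-fold for Hepacam between the lowest and the highest library, close in size to the 628-fold range of Snap25. Slc1a2, the main glutamate transporter of forebrain astrocytes, stood at 37.7, 24.8 and 89.3 FPKM with the intracranial tumor only and IgG, and at 1.35, 0.61 and 0.37 FPKM with therapy. With both tumors it stood at 78.2, 1.01 and 125 FPKM with IgG and at 104, 247 and 232 FPKM with therapy. All 3 intracranial-only therapy libraries were below all 3 of their IgG controls, and among the both-tumor libraries the low IgG value is that of replicate 2. The therapy and IgG libraries with both tumors overlapped, since IgG replicate 3 was above therapy replicate 1.

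Slc1a3, the glutamate transporter that also marks radial glia and Bergmann glia, followed the same order of groups. It was at 14.9, 19.6 and 27.4 FPKM with the intracranial tumor only and IgG and at 1.04, 0.67 and 0.13 FPKM with therapy. Among both-tumor libraries it was at 23.1, 0.51 and 39.0 FPKM with IgG and at 40.5, 108 and 149 FPKM with therapy. The lowest library held 5 reads of Slc1a3, and the both-tumor therapy libraries lay above all 3 of their IgG controls.

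Hepacam, which encodes an adhesion protein that binds the protein of Mlc1, was the least abundant of the 9 genes. It was counted with 92, 81 and 172 reads in the intracranial-only IgG libraries and with 3, 1 and 2 reads with therapy. In the both-tumor groups it had 143, 6 and 169 reads with IgG and 214, 413 and 594 with therapy. As totals of 3 libraries, scaled to depth, the intracranial-only therapy group was 60.5-fold lower than its IgG control (27.5 to 166, exact 95% interval for counting error only). Against the same therapy group, the both-tumor therapy group was 194-fold higher (88.9 to 530).

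Gfap and Aqp4 had narrower ranges, 59.3-fold and 22.5-fold. Gfap, the filament gene, stood at 101, 85.5 and 155 FPKM with the intracranial tumor only and IgG, and at 8.40, 10.3 and 6.56 FPKM with therapy. With both tumors it stood at 105, 9.75 and 134 FPKM with IgG and at 203, 281 and 388 FPKM with therapy. Gfap was the most abundant of the 9 genes in all 3 both-tumor therapy libraries, and the lowest of these was above every library of the other groups.

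Aqp4, the water channel gene, was at 4.28, 3.88 and 6.82 FPKM with the intracranial tumor only and IgG and at 0.80, 0.75 and 0.84 FPKM with therapy. Among both-tumor libraries it was at 6.16, 1.47 and 6.46 FPKM with IgG and at 8.53, 13.7 and 16.8 FPKM with therapy. Its groups were ordered as those of Gfap, with the intracranial-only therapy libraries lowest and the both-tumor therapy libraries highest, each without overlap with its IgG control.

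Aldh1l1, Aldoc, Gja1 and S100b were between 13.1 and 190 FPKM in every library, those with little Snap25 included. Aldh1l1, the folate enzyme gene, was at 37.3, 45.6 and 36.0 FPKM with the intracranial tumor only and IgG and at 34.3, 21.5 and 40.6 FPKM with therapy, and those groups overlapped. In the both-tumor groups it was at 47.8, 21.7 and 40.5 FPKM with IgG and at 57.6, 69.0 and 76.4 FPKM with therapy. S100b was at 82.7, 104 and 151 FPKM with the intracranial tumor only and IgG and at 68.4, 70.3 and 60.3 FPKM with therapy. With both tumors it was at 146, 48.5 and 138 FPKM with IgG and at 182, 184 and 155 FPKM with therapy. Both genes had their highest values with both tumors and therapy, and their ranges over the 12 libraries were 3.56-fold for Aldh1l1 and 3.79-fold for S100b.

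Aldoc, the aldolase gene, was the most abundant of the 9 genes in all 3 intracranial-only therapy libraries and in replicate 2 of the both-tumor IgG group. The same held in replicates 1 and 2 of the intracranial-only IgG group, so this rank was not particular to libraries with little Snap25. It was at 127, 148 and 137 FPKM with the intracranial tumor only and IgG and at 96.3, 112 and 103 FPKM with therapy. Among both-tumor libraries it was at 140, 76.6 and 111 FPKM with IgG and at 118, 183 and 190 FPKM with therapy, a 2.48-fold range over the 12 libraries. Gja1, the connexin 43 gene, had the narrowest range, 1.64-fold. It lay between 13.8 and 19.2 FPKM with the intracranial tumor only and IgG, between 13.1 and 20.7 with therapy, between 13.9 and 18.1 with both tumors and IgG, and between 17.5 and 21.6 with both tumors and therapy. The Gja1 groups overlapped in each of the 4 comparisons, and this range is smaller than the 1.77-fold range of Pmel.

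**Figure D1:**
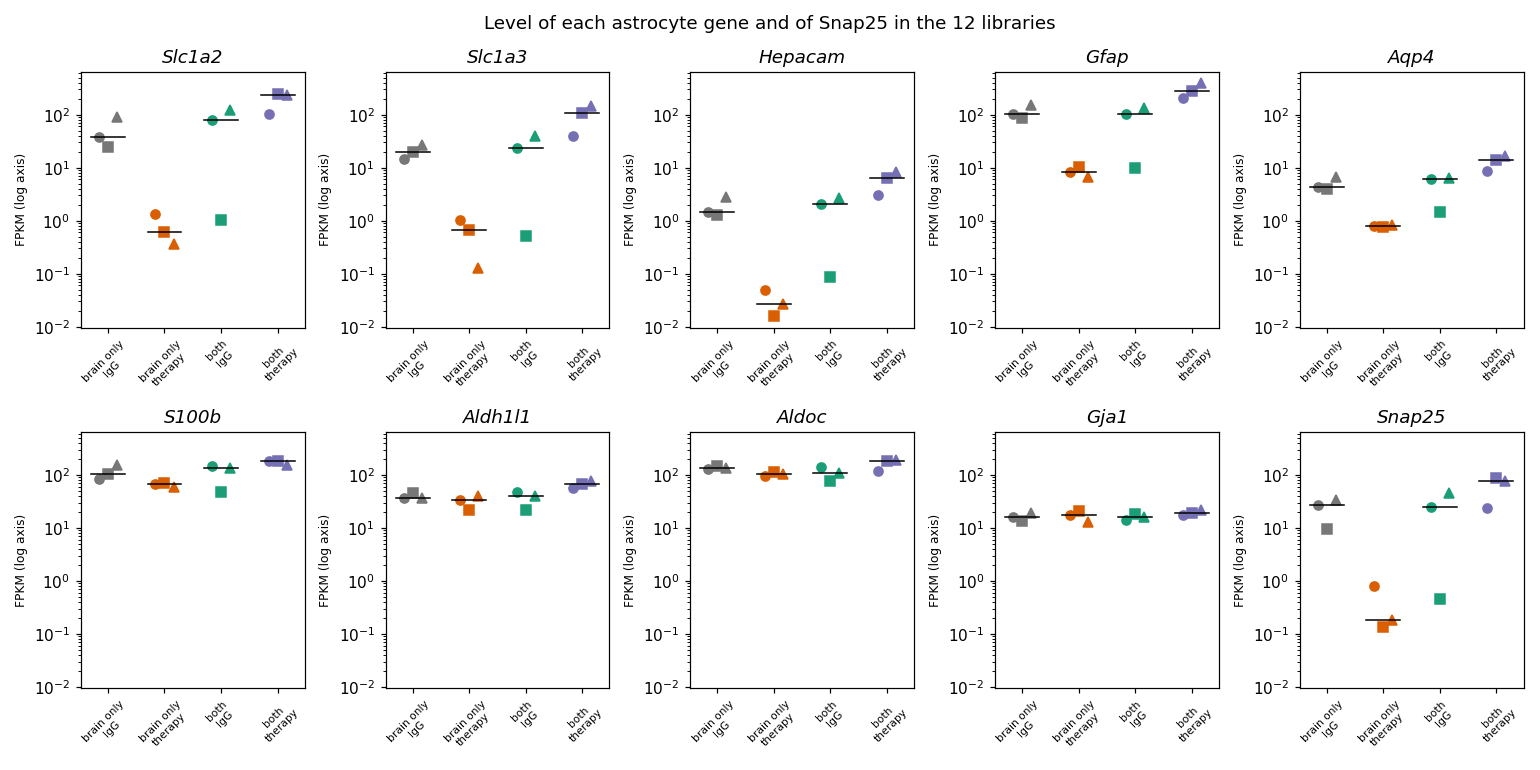
FPKM (log axis, the same in each panel) of the 9 astrocyte genes and of Snap25 in the 12 libraries, by group ("brain only" is the intracranial tumor only, "both" is both tumors; circle, square and triangle are replicates 1, 2 and 3, lines are medians of 3). Slc1a2, Slc1a3 and Hepacam move over a range like that of Snap25, Gfap and Aqp4 over a smaller one, and S100b, Aldh1l1, Aldoc and Gja1 stay within 3.79-fold.

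Set against Snap25 in the same library, the order of the genes turned around. The FPKM ratio of Slc1a2 to Snap25 lay between 1.41 and 4.44 in all 12 libraries, a 3.14-fold span for a gene whose level spanned 676-fold. That of Hepacam spanned 3.57-fold, from 0.0539 to 0.193, and that of Slc1a3 8.75-fold, from 0.557 to 4.87. The ratio of Slc1a3 in the lowest library, 0.704, rested on 5 reads and had an exact 95% interval of 0.192 to 2.2 for counting error. The ends of the span were 0.557 in intracranial-only IgG replicate 1 (0.501 to 0.617) and 4.87 in intracranial-only therapy replicate 2 (2.01 to 13.5). In each of the therapy and extracranial tumor comparisons the groups overlapped on the ratio for Slc1a2 and Hepacam. For Slc1a3 they overlapped in 3 of the 4 and did not between therapy and IgG with both tumors, where the mean log2 ratio was higher by 0.75. The highest IgG ratio there, 1.12 in replicate 2, rested on 18 reads of Slc1a3 and 25 of Snap25. Its exact 95% interval for counting error, 0.573 to 2.13, covered the 3 therapy ratios, which were 1.25 to 1.92. The choice of reference matters for these genes. Another reference was the geometric mean of those of 12 neuron markers, Snap25 among them, that had reads in every library. With it in place of Snap25, the mean log2 ratio with the intracranial tumor only (therapy minus IgG) went from 0.20 to -0.99 for Slc1a2. For Hepacam it went from 0.25 to -0.94. Under therapy, both tumors minus the intracranial tumor only, it went from 0.44 to 1.67 for Slc1a2, from -0.05 to 1.18 for Slc1a3 and from -0.02 to 1.21 for Hepacam, so that the last 2 changed direction. For Hepacam a prior count of 2 on log2 CPM gave 1.09 and -0.88 for these differences.

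The ratio of Gfap to Snap25 was 3.79 to 9.06 with the intracranial tumor only and IgG and 10.6, 74.3 and 35.5 with therapy. The exact 95% intervals of those therapy values were 7.59 to 15.3, 35.7 to 186 and 19.5 to 71.9, because Snap25 had 39, 7 and 11 reads there. With both tumors the ratio of Gfap was 4.15, 21.5 and 2.89 with IgG and 8.55, 3.24 and 5.02 with therapy, and these groups overlapped. The ratio of Aqp4 was 0.160 to 0.411 with the intracranial tumor only and IgG and 1.01 to 5.40 with therapy. With the intracranial tumor only, the mean log2 ratio was higher with therapy by 2.49 for Gfap and by 3.62 for Aqp4. Against the neuron markers with reads in every library it was higher by 1.29 and 2.42. With Snap25 as a covariate, described below, the same comparison gave negative fold changes, -0.63 for Gfap and -0.67 for Aqp4. The direction thus depends on how Snap25 enters.

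The ratios of the other genes to Snap25 followed Snap25 itself. They spanned 276-fold for Aldh1l1, 387-fold for Aldoc, 679-fold for Gja1 and 254-fold for S100b, against 372-fold for Pmel. For Gja1 the ratio lay between 0.574 and 1.46 with the intracranial tumor only and IgG and between 22.01 and 150 with therapy. Between these groups, 6 of the 9 genes had no overlap on the ratio, all higher with therapy, and so had 93.0% of the tested genes in either direction. Between the therapy groups the same 6 genes had lower ratios with both tumors, without overlap, against 94.2% of tested genes. These shares are near or below the background, so the ratio separates most genes in these libraries. With both tumors, 1 of 9 (Slc1a3) had no overlap on the ratio between therapy and IgG, against 2.49% of tested genes, and under IgG 0 of 9 between both tumors and the intracranial tumor only, against 0.584%.

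**Figure D2:**
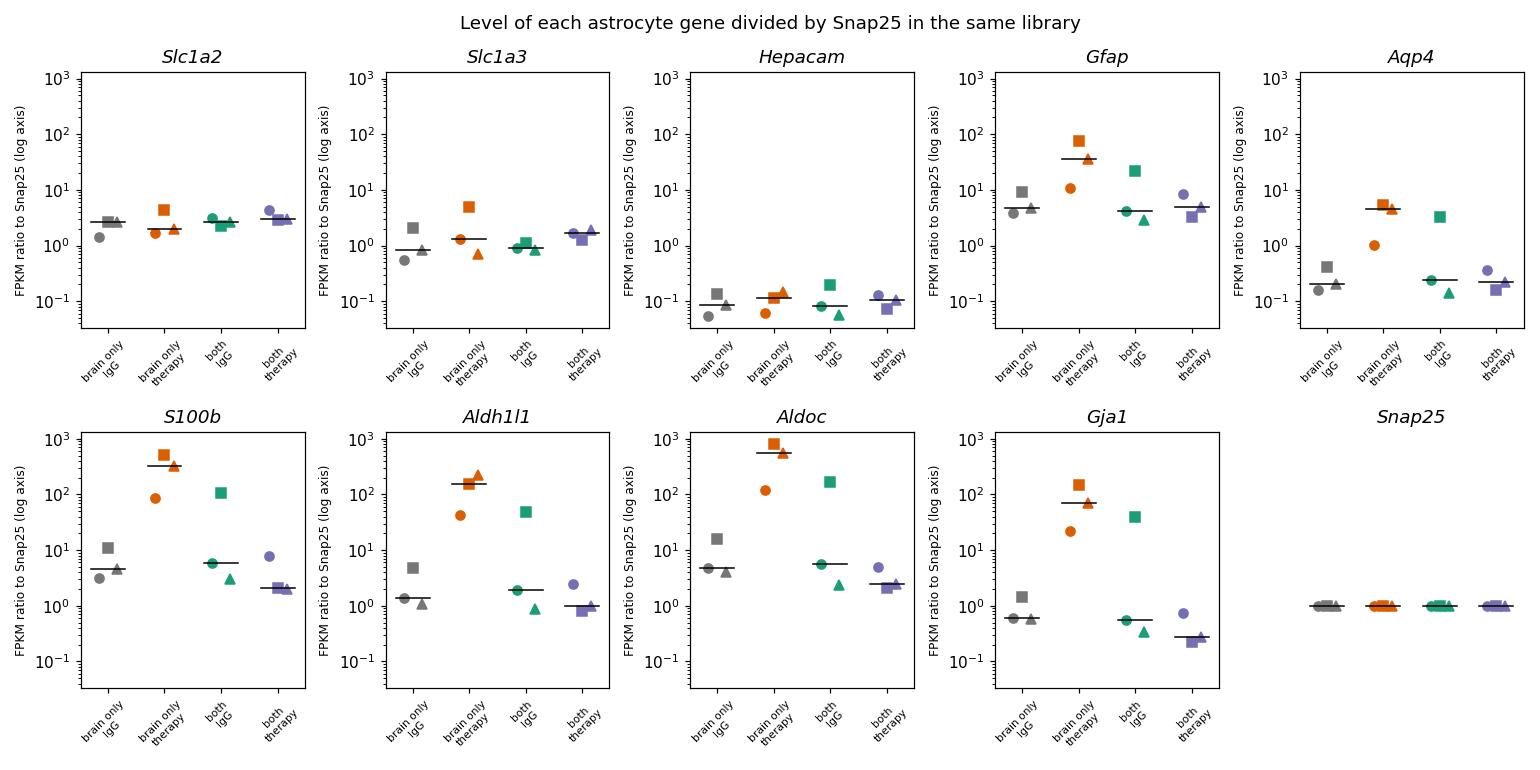
FPKM of each astrocyte gene divided by the FPKM of Snap25 in the same library (log axis, the same in each panel), by group and replicate as in the plot of levels, with Snap25 at 1 by construction. Slc1a2, Slc1a3 and Hepacam stay within 8.75-fold, whereas S100b, Aldh1l1, Aldoc and Gja1 are highest in the libraries with the least Snap25.

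The ratios among the 9 genes moved with this. Gfap stood at 6.21, 16.8 and 17.96 times the FPKM of Slc1a2 in the intracranial-only therapy libraries and at 9.62 times in both-tumor IgG replicate 2. In the other 8 libraries it was 1.07 to 3.45 times that of Slc1a2. S100b was 50.6, 115 and 165 times Slc1a2 in the intracranial-only therapy libraries and 0.669 to 1.75 times with both tumors and therapy. Slc1a3 to Slc1a2, the ratio of the glutamate transporter genes, stayed between 0.296 and 1.10 in all 12 libraries.

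The first comparison sets therapy against IgG where both tumors were present, and asks how the antibodies altered intracranial tumors of mice that also carried melanoma elsewhere. All 9 genes had fitted fold changes above 0, as did 51.6% of tested genes. Those of the 9 ran from 0.26 for Gja1 to 2.28 for Slc1a3 on the log2 scale, with a median of 1.48. None of the 9 passed edgeR's quasi-likelihood test at an adjusted p of 0.05, where 5.39% of the 15925 tested genes did, 198 higher and 660 lower. The log2 fold changes (± SE, n = 3 per group) were 1.48 ± 0.45 for Aqp4 (adjusted p = 0.0653 in edgeR), 0.88 ± 0.28 for Aldh1l1 (0.0689) and 1.83 ± 0.67 for Gfap (0.0966). They were 0.57 ± 0.22 for Aldoc (0.101), 1.89 ± 0.83 for Hepacam (0.139), 2.28 ± 1.00 for Slc1a3 (0.141), 0.64 ± 0.33 for S100b (0.190) and 1.53 ± 1.06 for Slc1a2 (0.309). At an unadjusted p under 0.05 there were 6 of the 9, against 33.4% of tested genes. DESeq2 called 4 of the 9 (Gfap, Aqp4, Aldh1l1 and Aldoc) and 3323 genes in all, limma-voom 1 (Aqp4) and 1695 genes, and limma on log2(FPKM + 1) 3 (Aqp4, Aldh1l1 and Hepacam) and 2630 genes. Without both-tumor IgG replicate 2, Slc1a2 was at 0.95, S100b at 0.30 and Gja1 at 0.40, and 0 of the 9 and 0 genes in all passed in edgeR. In FPKM, 6 of 9 lay higher in all 3 therapy libraries than in all 3 IgG libraries, against 37.8% of tested genes without overlap in either direction. Macrophage markers moved the same way in these libraries, with a summed FPKM of 10 genes of 433 to 775 with therapy and 45.6 to 209 with IgG, and oligodendrocyte markers at 484 to 913 against 112 to 461. In edgeR 2 of 10 macrophage and 2 of 15 oligodendrocyte genes passed as higher, against 1.24% of tested genes. Fitted values were above 0 for 12 of 12 neuron genes (0 passed) and 11 of 11 microglia genes (2 passed). The summed FPKM of these lists overlapped between the groups. It was 111 to 425 against 5.69 to 194 for neurons and 580 to 735 against 333 to 687 for microglia. The part of these cell markers in the values of the astrocyte genes was not tested.

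The second comparison sets therapy against IgG where only the brain held a tumor. The 5 genes with the wide ranges were lower in all 3 therapy libraries than in all 3 controls. The log2 fold changes were -5.99 ± 1.35 for Slc1a2, -5.05 ± 1.23 for Slc1a3, -5.79 ± 1.11 for Hepacam, -3.71 ± 0.73 for Gfap and -2.60 ± 0.48 for Aqp4 (n = 3 per group). Each had an adjusted p = 0.134 in edgeR, which called 0 of the 9 genes and 0% of all tested genes, with 5 of the 9 and 13.5% of tested genes at an unadjusted p under 0.05. S100b was at -0.71 ± 0.33 (adjusted p = 0.381 in edgeR), Aldoc at -0.36 ± 0.22 (0.524), Aldh1l1 at -0.26 ± 0.28 (0.736) and Gja1 at 0.10 ± 0.19 (0.863). The 5 wide-range genes passed as lower in DESeq2 (1030 genes in all), when only the compared groups were fitted (839), and without both-tumor IgG replicate 2 (1002), a library of neither group that enters through the shared estimate of spread. In that last fit their adjusted p ran from 0.00253 to 0.00339 in edgeR, and S100b passed too (0.0476). limma-voom and the fits on log2 FPKM called 0. In FPKM, 7 of 9 lay lower without overlap, against 22.4% of tested genes in either direction. In this comparison 46.3% of tested genes had fitted values above 0. Markers of neurons and oligodendrocytes were lower in the same libraries, with fitted values below 0 for 12 of 12 neuron genes (0 past the threshold) and 15 of 15 oligodendrocyte genes (0 past it). Their summed FPKM was 2.71 to 6.55 with therapy and 51.2 to 159 with IgG for the neuron genes, and 108 to 148 against 189 to 309 for the oligodendrocyte genes. Fitted values were below 0 for 10 of 11 microglia genes and 11 of 11 endothelial genes too (0 past the threshold). The summed FPKM of these lists overlapped between the groups, however. It was 390 to 497 with therapy and 344 to 582 with IgG for microglia, and 82.9 to 261 against 168 to 187 for endothelium.

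The third comparison is between the IgG groups, and asks what an extracranial tumor changed without therapy. The fitted fold changes of the 9 genes lay between -0.49 ± 0.65 for Gfap and 0.39 ± 1.04 for Slc1a2 (n = 3 per group). edgeR called 0 of the 9 and 0% of tested genes, each member had an adjusted p = 1, and 0 of the 9 were at an unadjusted p under 0.05. The other tools run (DESeq2, limma-voom and limma on log2 FPKM) called 0 as well. No gene of the 9 was without overlap in FPKM, against 4.7% of tested genes. Replicate 2 of the both-tumor IgG group sets the spread here, with 0.51 FPKM of Slc1a3 against 23.1 and 39.0 in its group. Without it, Gfap was at 0.03 and Slc1a2 at 0.97, and 0 of the 9 were called.

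The comparison between the therapy groups had the largest differences of the 4. Of the 9 genes, 8 were higher with both tumors, against 45.4% of tested genes called in either direction and 3886 of 15925 called higher. The log2 fold changes were 7.92 ± 1.45 for Slc1a2, 7.31 ± 1.32 for Slc1a3, 7.45 ± 1.15 for Hepacam, 5.05 ± 0.78 for Gfap and 3.97 ± 0.51 for Aqp4 (n = 3 per group, each with adjusted p = 0.00455 in edgeR). S100b rose by 1.32 ± 0.33 (adjusted p = 0.0102 in edgeR), Aldh1l1 by 1.01 ± 0.28 (0.0143) and Aldoc by 0.59 ± 0.22 (0.0452). Gja1 was at 0.12 ± 0.19 (0.643). Aldoc did not pass without the filter, in limma-voom or without any of 9 of the 12 libraries (highest adjusted p = 0.158), and the call of Aldh1l1 was lost when intracranial-only therapy replicate 2 or both-tumor therapy replicate 3 was left out. Slc1a2 did not pass in limma-voom (adjusted p = 0.0744). In FPKM, 8 of 9 lay higher without overlap, against 59.1% of tested genes. Markers of neurons, oligodendrocytes and microglia were higher too, with 12 of 12, 14 of 15 and 9 of 11 tested genes passing, while of 10 melanocyte markers 0 passed in edgeR. The summed FPKM of the 12 neuron markers was 111 to 425 with both tumors and 2.71 to 6.55 with the intracranial tumor only. The values with Snap25 as a covariate, which bear on this, follow the interaction.

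The interaction is the difference between both therapy effects, with both tumors minus with the intracranial tumor only. It was positive for all 9 genes and for 52.3% of tested genes. Of the 9, 5 passed edgeR's quasi-likelihood test, against 22% of tested genes. These were Hepacam at 7.68 ± 1.39, Slc1a2 at 7.53 ± 1.70, Slc1a3 at 7.32 ± 1.58, Gfap at 5.54 ± 0.99 and Aqp4 at 4.08 ± 0.66 (n = 3 per group), each with an adjusted p = 0.0321. S100b (1.36 ± 0.47), Aldh1l1 (1.14 ± 0.39), Aldoc (0.93 ± 0.30) and Gja1 (0.16 ± 0.27) did not pass. Leaving out any of 8 libraries left 0 of the 9 and 0 genes of the table. Those 8 were intracranial-only IgG replicates 2 and 3, all 3 intracranial-only therapy libraries, both-tumor IgG replicate 1 and both-tumor therapy replicates 2 and 3, and without the remaining 4 in turn 5 to 7 of the 9 passed. DESeq2 called 8 of the 9 and 4954 genes in all, and limma-voom 2 of the 9 and 1584 genes.

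With the log2 CPM (counts scaled to library size) of Snap25 as a covariate in the same fit, none of the wide-range genes passed. Their fold changes were smaller in size, except that of Slc1a3 for the extracranial tumor under IgG. For both tumors against the intracranial tumor only under therapy, Slc1a2 went from 7.92 to 0.81 ± 0.64, Slc1a3 from 7.31 to 1.18 ± 1.04 and Gfap from 5.05 to 1.27 ± 0.63 on the log2 scale. Hepacam stood at 2.24 ± 0.64 and Aqp4 at 1.58 ± 0.41, both with an adjusted p = 0.730 in edgeR, and these were the only members with an unadjusted p under 0.05. For therapy with both tumors, Gfap was at 1.08 ± 0.36 and Aqp4 at 0.83 ± 0.24 (both adjusted p = 0.211 in edgeR), Hepacam at 0.80 ± 0.30 (0.224), Slc1a3 at 1.14 ± 0.51 (0.276) and Slc1a2 at 0.36 ± 0.33 (0.565). For therapy with the intracranial tumor only, Hepacam was at -1.63 ± 0.56, Aqp4 at -0.67 ± 0.36 and Gfap at -0.63 ± 0.55, and for the interaction Hepacam was at 2.43 ± 0.71, Gfap at 1.71 ± 0.77 and Aqp4 at 1.503 ± 0.51. In all 5 comparisons 0 of the 9 genes and 0% of tested genes were called. At an unadjusted p under 0.05 there were 4, 1, 0, 2 and 3 of the 9, in the order therapy with both tumors, therapy with the intracranial tumor only, extracranial tumor under IgG, extracranial tumor under therapy and interaction. The shares of tested genes were 18.2%, 5.92%, 3.35%, 6% and 4.39% in that order. Both-tumor IgG replicate 2 moved these values, since it enters the slope on Snap25. Without it, the values for both tumors against the intracranial tumor only under therapy were 2.55 for Slc1a2, 3.21 for Slc1a3, 3.30 for Gfap, 3.18 for Hepacam and 2.01 for Aqp4. Those for therapy with the intracranial tumor only were -2.29 for Gfap, -2.38 for Hepacam and -1.02 for Aqp4, and the interaction of Gfap was 3.42. In that fit too 0 of the 9 and 0 genes in all passed. Snap25 differs between the groups by as much as the wide-range genes do, so this fit leaves little of the difference between groups to test, and a p above the threshold does not show that the levels per Snap25 were equal. Other tools were not run on the fit with the covariate.

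**Figure D3:**
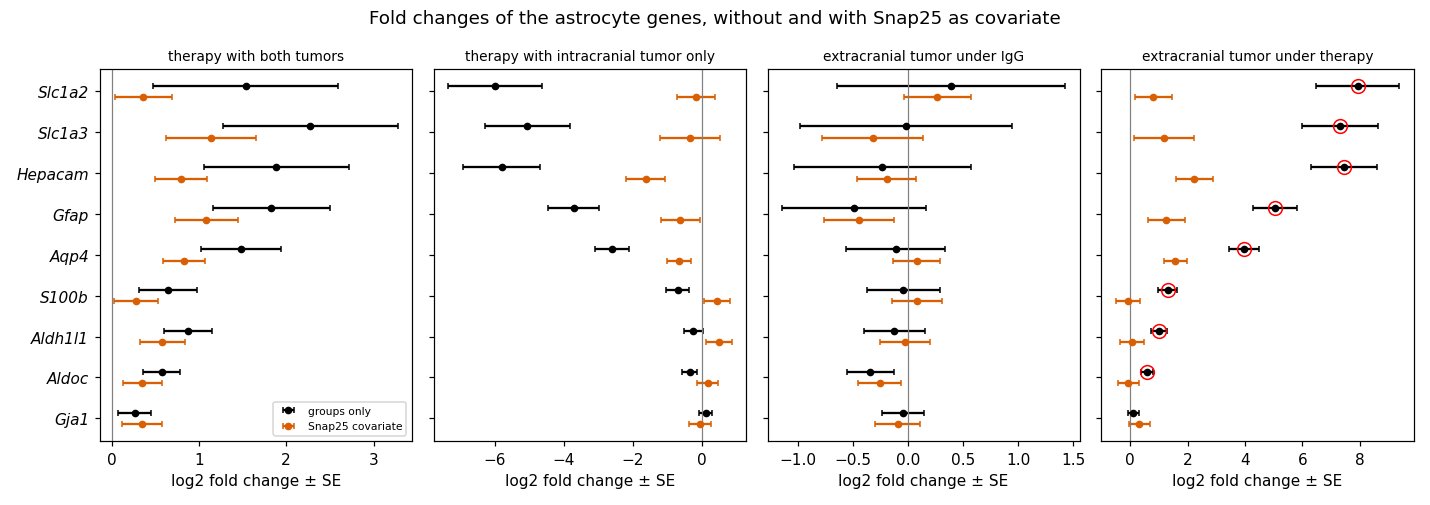
Log2 fold change ± SE of each astrocyte gene in 4 comparisons (12 libraries, 3 per group), from the fit of group means (black) and with Snap25 as covariate (orange), with red rings on values past an adjusted p of 0.05 in edgeR. Rings appear only in the panel of the extracranial tumor under therapy, on 8 genes in the fit of group means and on none with the covariate, and the horizontal axes differ between panels.

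Within groups, the genes differed in how closely they followed Snap25. The slope is the change in the log2 level of a gene per log2 unit of Snap25 among libraries of the same group, so that a slope of 1 means proportional levels, and 9.93% of tested genes had a slope past the threshold. Slc1a2 had a slope of 0.99 ± 0.09 (adjusted p = 0.000108 in edgeR), Slc1a3 of 0.83 ± 0.13 (0.00286) and Hepacam of 0.71 ± 0.07 (0.000223). Gfap had 0.50 ± 0.08 (0.00369), Aqp4 0.32 ± 0.05 (0.00260) and S100b 0.19 ± 0.05 (0.0455). The slopes of Aldh1l1 (0.13 ± 0.05, adjusted p = 0.150), Aldoc (0.09 ± 0.04, 0.233) and Gja1 (-0.03 ± 0.04, 0.715) did not pass. The call of S100b was lost on leaving out any of 7 libraries: intracranial-only IgG replicate 3 (0.0673), intracranial-only therapy replicate 3 (0.0695), any both-tumor IgG library (0.0914 to 0.9997) or both-tumor therapy replicate 2 (0.0688) or 3 (0.0515). The order of the 9 slopes, with the transporters highest and Gja1 lowest, is that of their ranges except that Slc1a3 had the widest range. Without both-tumor IgG replicate 2, where 1.31% of genes passed, Slc1a2 passed (0.74, adjusted p = 0.0251) and the other 8 did not, with Hepacam at 0.58 (0.0942), Slc1a3 at 0.55 (0.432), Aqp4 at 0.26 (0.489), Gfap at 0.23 (0.787), S100b at 0.03, Aldh1l1 at 0.04, Aldoc at 0.03 and Gja1 at 0.10 (each 0.9997).

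**Figure D4:**
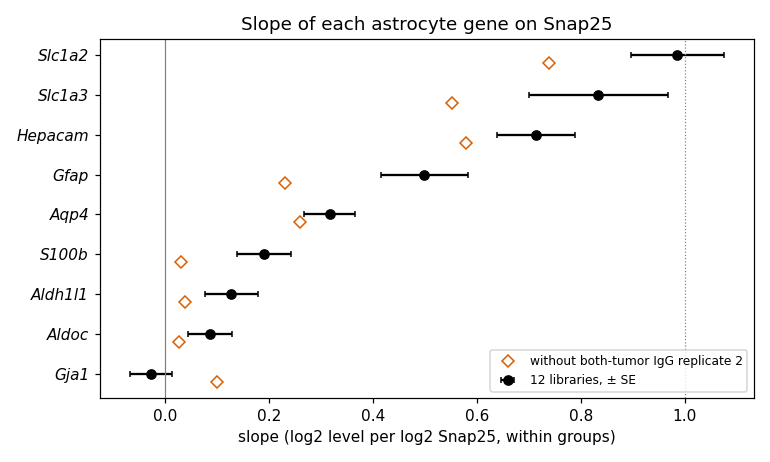
Slope of each astrocyte gene on Snap25 within groups (log2 level per log2 Snap25; points with bars are 12 libraries ± SE, open diamonds the slope without both-tumor IgG replicate 2, the dotted line is 1). Slopes run from 0.99 for Slc1a2 to -0.03 for Gja1, and without that library that of Gja1 is 0.10 and those of the other 8 genes are smaller.

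Other astrocyte genes, from lists chosen by name, were counted in the same fits. Of 29 tested other astrocyte genes, 27 were higher and 1 lower with both tumors than with the intracranial tumor only under therapy, with a median of 4.52 on the log2 scale against 0.03 over all genes tested, of which 24.4% were higher and 45.4% passed in either direction. Ppp1r3c, a glycogen regulator, rose by 6.22 ± 0.88, Bmpr1b, a bone morphogenetic protein receptor gene, by 4.18 ± 0.64 and Fgfr3, a growth factor receptor gene, by 2.94 ± 0.50 (each adjusted p = 0.00455 in edgeR). Prodh, the proline dehydrogenase gene, was the 1 lower gene, at -1.13 ± 0.19 (0.00455). Of the same list, the effect of therapy with both tumors had 0 genes higher and 1 lower, Prodh again, at -0.9999 ± 0.19 (0.0498).

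Of 11 tested transcription factors of astrocytes, 8 were higher with both tumors under therapy (24.4% of tested genes were), among them Rfx4 (6.77 ± 1.22), Id4 (6.41 ± 0.85) and Sox9 (2.09 ± 0.41), while Nfia (-0.08 ± 0.11, adjusted p = 0.595 in edgeR) and Nfib (0.07 ± 0.15, 0.726) did not pass. Of 14 genes of the glutamate cycle and of potassium and water handling, 8 were higher and 1, Dag1, lower. The potassium channel gene Kcnj10 rose by 6.96 ± 1.38 and the glutamine synthetase gene Glul by 1.52 ± 0.26. Some genes, Glul and Kcnj10 among them, stand in both this list and that of other astrocyte genes. Interaction calls were 24 higher and 1 lower of 29 other astrocyte genes, 6 of 11 transcription factors and 7 of 14 genes of the glutamate, potassium and water list, against 22% of tested genes.

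Of 12 genes used as markers of reactive astrocytes, 3 were higher and 2 lower with both tumors under therapy, a share near the 45.4% of all tested genes that passed. S1pr3, a sphingosine phosphate receptor gene, rose by 2.23 ± 0.33, Osmr, an oncostatin M receptor gene, by 1.21 ± 0.19 and the protease inhibitor gene Serpina3n by 2.49 ± 0.54. Cd44, an adhesion receptor gene, changed by -0.44 ± 0.11 and Nes, which encodes nestin, by -1.16 ± 0.40. The filament gene Vim was at -0.05 ± 0.16 (adjusted p = 0.827 in edgeR). For therapy with both tumors 2 of the 12 passed, Osmr at 0.81 ± 0.19 and S1pr3 at 1.32 ± 0.32 (both adjusted p = 0.0498), against 5.39% of tested genes. These calls, like that of Prodh in the same comparison, were lost where 0 genes passed: without the filter, with RLE size factors, with 2 groups fitted alone and on leaving out any of 9 libraries. The summed FPKM of these 12 genes was 1481 to 1939 in the 12 libraries, and tumor cells, macrophages and endothelium also make several of them.

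The mean profile of the 9 genes over the 12 libraries was matched most closely by Ptn, which encodes the secreted growth factor pleiotrophin, and Htra1, a secreted protease gene. The measure was the root-mean-square difference of centred log2 CPM, over 12955 genes with a mean of at least 1 CPM, and stood at 0.213 for Ptn and 0.215 for Htra1. Epb41l3 (0.264), Fam57b, Olfm1, Mark1, Mgat3, Ndrg4 and Nrxn2 (0.305) were also among the closest, against a median of 1.55. Among the 9 genes, Aqp4 (0.254) and Gfap (0.547) were closest to their own mean, and Slc1a2 (1.82) and Slc1a3 (1.56) were farthest, since the mean lies between the wide and the narrow ranges. This likeness is a description over 12 libraries that share the differences in Snap25 described above.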

How the data were processed

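The authors deposited a table of raw read counts per Ensembl gene and a table of FPKM values for 12 libraries. Per the submitters' processing notes, TopHat2 2.0.12, Bowtie2 2.2.3 and HTSeq 0.6.1 were used with GRCm38 and mm10, with strand use not given in the sources used here. For all 16062 genes with reads in every library, the deposited FPKM equalled the count divided by 1 length per gene and by the library total, within a relative tolerance of 1e-06. Of 47069 identifiers, 46488 matched a symbol.

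Counts were tested with edgeR 4.0.16 in R 4.3.3 (quasi-likelihood, TMM factors, filterByExpr with minimum count 10 and minimum total 15, 4 group means over 12 libraries, Benjamini-Hochberg over 15925 genes, threshold 0.05), and again with the centred log2 CPM of Snap25 as covariate. The slope on Snap25 within groups was added after seeing the data. Each standard error was derived from the fold change and its F statistic (size over root F). The scripts were tested on simulated data. Alternatives were RLE size factors, no filter, DESeq2 1.42.0, limma 3.58.1 on voom values and on log2(FPKM + 1) and log2(FPKM + 0.1), 2 groups alone, other neuron covariates and each library left out. All 9 genes are named. Of each other list, those with the smallest p were named, at most 4 by the rule, and others named were chosen after their values were seen. Some genes that meet the rules are not reported here. The genes and lists were chosen with earlier results of these data known. Promoters are from RefSeq (GRCm38.p6), whose table held 8 of the 9 genes. Where nothing says that replicates came from separate animals, p-values measure only the spread between these libraries.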

Additional observations from a re-analysis of the deposited data

Results flagged for a closer look

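For 5 astrocyte genes the effect of therapy differed between mice with both tumors and mice with the intracranial tumor only, by the interaction term of edgeR. The difference (log2) was 7.68 for Hepacam, 7.53 for Slc1a2, 7.32 for Slc1a3, 5.54 for Gfap and 4.08 for Aqp4, each with an adjusted p = 0.0321. Of all tested genes 22% passed. Leaving out any of 8 libraries ended all 5 calls (highest adjusted p = 0.0669), and 0 passed with Snap25 as a covariate. In each case all 3 intracranial-only therapy libraries lay below their IgG controls. Snap25 was below 1 FPKM in the same 3 libraries.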

How the results depend on the processing

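No paired analysis was possible because the labels give no replicate numbers that could pair libraries across groups. For therapy with both tumors edgeR called 858 genes. The count was 0 with RLE size factors, without the filter and in a fit of 2 groups alone, 3323 in DESeq2, 1695 in limma-voom, 2630 on log2(FPKM + 1), 1759 on log2(FPKM + 0.1) and 0 to 2394 with 1 library left out; of the 9 astrocyte genes 4, 1 and 3 were called in DESeq2, limma-voom and log2(FPKM + 1), and 0 to 2 with 1 library left out. For therapy with the intracranial tumor only (0 genes), DESeq2 called 1030 genes and 5 of the 9, a fit of 2 groups alone 839 and 5, and leaving out 1 library gave 0 to 1002 and 0 to 6. For the extracranial tumor under therapy (7231 genes), leaving out 1 library gave 4710 to 8128 genes and 6 to 8 of the 9. For the interaction (3505 genes, 5 of the 9), limma-voom called 1584 and 2, DESeq2 8 of the 9, and leaving out 1 library gave 0 to 4367 and 0 to 7. The cause of these differences was not tested.

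Under IgG, Slc1a2 (0.39) turned to -0.9967 in limma-voom, -0.72 on log2(FPKM + 1) and -0.98 on log2(FPKM + 0.1), and ran from -0.36 to 1.08 with 1 library left out, as Gfap did from -1.001 to 0.0289. With 1 library left out, Gja1 ran from -0.0552 to 0.26 (therapy, intracranial tumor only), from -0.0721 to 0.26 (extracranial tumor under therapy) and from -0.0143 to 0.31 (interaction), and its slope from -0.0437 to 0.10. The geometric mean of the neuron list genes with reads in every library was also used in place of Snap25. The therapy difference of the log2 ratio with the intracranial tumor only was then -0.99 for Slc1a2, against 0.20. For Hepacam it was -0.94, against 0.25. Hepacam had 6 reads in the intracranial-only therapy group, so its fold changes there depend on the prior count.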

Other observations

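Markers of other brain cells were counted in the same fits, in the comparison of both tumors with the intracranial tumor only under therapy. Of 9 tested striatal neuron genes 7 were higher, with a median log2 fold change of 3.92, of 11 endothelial genes 7 (0.89) and of 10 macrophage genes 7 (2.62). Of all tested genes 24.4% were higher in that comparison and 45.4% passed in either direction. The summed FPKM of the endothelial genes was 147 to 188 with both tumors and 82.9 to 261 with the intracranial tumor only, so those groups overlapped. Slc7a10, an amino acid transporter gene of astrocytes, the transcription factor gene Hes5, the dopamine receptor gene Drd2 and the oligodendrocyte gene Opalin each had 0 reads in the 3 intracranial-only therapy libraries. So had the ependyma and choroid plexus genes Folr1, Ccdc153, Tmem212 and Dynlrb2, and Tmem212 had 0 reads in both IgG groups too. Hes5, Drd2, Folr1, Ccdc153, Tmem212 and Dynlrb2 did not pass the filter on low counts. Dip2a overlaps S100b on the opposite strand with 0 shared exon bases.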
